A study of Mus musculus with 6 samples.

Results

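Keratins, desmosomes and the factors that keep epithelial cells epithelial were followed in the conjunctival epithelium of mouse embryos, as 36 genes chosen by name. They comprise basal keratins (Krt5, Krt14, Krt15, Krt17), simple keratins (Krt7, Krt8, Krt18, Krt19), keratins of differentiating or specialised layers (Krt1, Krt4, Krt6a, Krt10, Krt12, Krt13), desmosomal cadherins and plaque proteins, other adhesion genes and epithelial regulators. The genes were chosen with earlier results of these data known. A probe of the bead array belonged to a gene if the platform gave it that gene's current or former symbol. Of the 36 genes, 35 had at least 1 of 54 probes, out of 19053 genes on the array, and Dsp, the plaque protein desmoplakin, had none that was matched. A probe of 30 of them was detected on at least 2 of the 6 arrays, and these 30 were tested; 27 of the 30 were detected on all 6 arrays.

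Keratins are intermediate filament proteins that assemble only as pairs of a type II and a type I partner, such as Krt5 with Krt14 in basal cells of stratified epithelia and Krt8 with Krt18 in simple and embryonic epithelia. The filaments anchor at desmosomes, cell junctions in which desmocollins and desmogleins span the membrane and plakophilins, plakoglobin and desmoplakin link them to keratin. Trp63, the grainyhead-like factors and Ovol1 are transcription factors of epithelial commitment and differentiation, and Esrp1 and Esrp2 impose the epithelial pattern of splicing. The conjunctiva is a non-keratinised epithelium between the eyelids and the eyeball, and lacrimal and Harderian glands bud from it.

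The epithelium was laser-captured at E14.5 from nasal, temporal and dorsal conjunctiva, and each combination of genotype and region was measured on 1 array, which makes 3 arrays per genotype. Arrays labelled knockout came from Sox9 fx/fx; Le-Cre-positive (Sox9-/-) embryos and the others from wild-type embryos, all on a mixed FVB and 129 background. Le-Cre is driven by a Pax6 enhancer that works in ocular surface ectoderm, and the labels do not say whether wild-type embryos carried Cre. The design text describes 3 embryos per genotype with pooled cDNA for each region, so arrays of a genotype share embryos and genotype p-values understate the variation from embryo to embryo; the extraction protocol instead speaks of lens tissue of 1 embryo.

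Detected probes made up 39.8% of 45281 on the knockout nasal array, the lowest share, and 41.7% to 45.6% on the other 5, with a median of 43 beads behind a probe. Sox9 itself did not separate the genotypes. Its brighter probe read 10.21, 10.06 and 9.85 on the nasal, temporal and dorsal arrays labelled knockout against 8.29, 10.01 and 10.35 in wild type, in log2 normalised intensity, so genotype is named by label only; where the Sox9 probes lie relative to the deleted part is not known here. Of 10 epithelial markers, 9 were on the array and all 9, which also belong to the list, were detected, with summed intensities of 8120 to 8510 on arrays labelled knockout and 7690 to 8190 in wild type. Periocular mesenchyme markers summed to 1020 to 1290 and 786 to 1460 (16 of 19 on the array tested; Pdgfrb, Zeb1 and Cdh2 not detected). In bulk RNA, fewer cells of a type and less RNA per cell cannot be told apart.

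The list sat slightly above the other genes on arrays labelled knockout, with no gene past the test. Tmem79, Dsc3, Krt17 and Esrp2 had fitted differences of 1 log2 unit or more, all 4 higher on the arrays labelled knockout, where 3.22% of genes reached that size either way, with 174 of 11147 genes (1.56%) higher and 185 (1.66%) lower. By the brightest probe of each, Krt5, Dsc3, Pkp3, Esrp2, Grhl3 and Tmem79 read higher on every array labelled knockout than on any wild-type array, which is 6 of 30 members against 5.16% of all genes tested, and Epcam alone read lower on all 3, where the share of all genes is 6.31%. The second probes of Esrp2 and Grhl3 did not separate the genotypes. In all, 20 of 30 members had a positive difference (49.2% of all genes) and the median was 0.28, against -0.01 over all genes. Because members were chosen with earlier results of these data known, these shares do not test the list against other genes. The difference was positive in all 3 regions for 9 members (13%) and negative in all 3 for 2 (14.4%), that is of 1 sign for 11 (27.4%). With limma and Benjamini-Hochberg adjustment 0 of 30 members and 0 of 11147 genes passed 0.05, the smallest adjusted p being 0.814, and at an unadjusted p under 0.05 there were 6 members, all higher, beside 658 genes (5.9%). The median 95% interval of a member reached 0.7 log2 units to either side. With median scaling 27 of 30 members were positive, with a median of 0.141 over all genes, and 10 members then separated the genotypes in the higher direction, as did 1320 of 11147 genes.

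**Figure D1:**
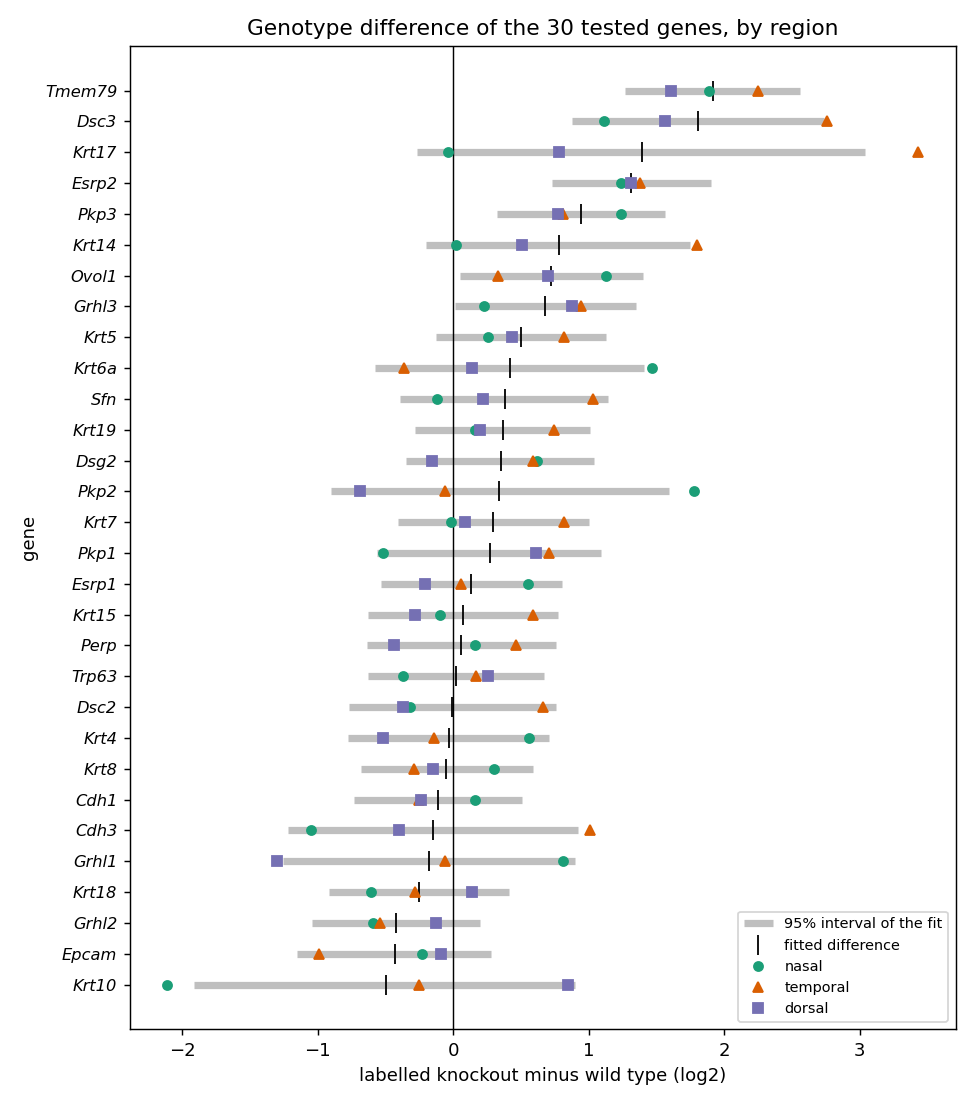
Difference between the array labelled knockout and the wild-type array in each region (coloured points) for the 30 tested genes, in log2 units, with the fitted difference (black tick) and its 95% interval (grey bar), ordered by the fit. Tmem79, Dsc3, Esrp2 and Pkp3 have all 3 points above 0.7, Krt17 and Krt14 have 1 temporal point far from the others, and Krt10 has a nasal point at -2.11.

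Of the 6 genes that separated the genotypes upward, Tmem79, Grhl3 and Krt5 had their RefSeq promoter windows searched. Krt14, the filament partner of Krt5, was searched as well. Windows of Dsc3, Pkp3 and Esrp2 were not searched. Each window is 300 bases of GRCm38.p6 on the minus strand, 250 before and 50 after the annotated start, given 5′ to 3′ at chr3:88334384-88334683 for Tmem79, chr4:135573583-135573882 for Grhl3, chr15:101712856-101713155 for Krt5 and chr11:100205981-100206280 for Krt14. Capitals mark matches on either strand to 6 short motifs, TATAAA of TATA boxes, AACAAT of Sox factors, AACNGGTT of grainyhead-like factors, TGANTCA of AP-1, GCCNNNGGC of AP-2 and GGGCGG of SP and KLF factors.
Tmem79: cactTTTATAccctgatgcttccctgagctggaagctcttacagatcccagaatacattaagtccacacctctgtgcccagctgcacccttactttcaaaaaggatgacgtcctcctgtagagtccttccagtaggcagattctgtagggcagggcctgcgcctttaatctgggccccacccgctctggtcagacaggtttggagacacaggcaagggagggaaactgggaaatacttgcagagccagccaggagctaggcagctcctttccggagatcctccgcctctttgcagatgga
Grhl3: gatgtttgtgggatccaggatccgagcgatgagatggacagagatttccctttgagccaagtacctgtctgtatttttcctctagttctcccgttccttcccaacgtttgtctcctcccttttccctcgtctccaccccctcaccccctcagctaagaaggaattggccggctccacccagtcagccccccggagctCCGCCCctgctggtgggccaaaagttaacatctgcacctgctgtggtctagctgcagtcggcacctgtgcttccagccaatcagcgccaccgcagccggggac
Krt5: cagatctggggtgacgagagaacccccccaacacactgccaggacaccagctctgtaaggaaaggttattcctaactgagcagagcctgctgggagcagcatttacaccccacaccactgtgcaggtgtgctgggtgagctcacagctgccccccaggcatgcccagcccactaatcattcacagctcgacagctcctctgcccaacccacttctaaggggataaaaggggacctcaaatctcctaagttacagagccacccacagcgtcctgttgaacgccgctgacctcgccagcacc
Krt14: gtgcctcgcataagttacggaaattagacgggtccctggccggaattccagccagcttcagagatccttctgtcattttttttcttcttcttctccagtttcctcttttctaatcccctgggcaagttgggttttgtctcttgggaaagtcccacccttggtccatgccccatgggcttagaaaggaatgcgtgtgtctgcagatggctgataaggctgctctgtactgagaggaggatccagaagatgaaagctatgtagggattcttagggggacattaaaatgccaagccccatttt
The single match in Tmem79 is a TATAAA on the reverse strand far upstream (-246 to -241), and that in Grhl3 is a GC box at -53 to -48. Krt5 and Krt14 hold none of the 6 in these windows. AACAAT was in the windows of 0 of the 15 members searched and in 10.7% of all 32851 windows, TATAAA in 4 (13.6% of all), GGGCGG in 6 (35.7%), GCCNNNGGC in 4 (16.6%), TGANTCA in 1 (7.81%) and AACNGGTT in 1, the 14-3-3 sigma gene Sfn (2.09%). The shares over all windows left out no chromosome. The member search was narrower and covered none of the desmosomal cadherin genes Dsc2, Dsc3, Dsg2 and Dsg3, so the member counts say nothing of them. These are letter matches and say nothing of binding.

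Krt5, Krt14 and Krt15 were bright on every array and Krt17 was dimmer, and the wild-type temporal array read lowest for all 4 basal keratins. Krt5, the type II keratin of basal cells, read 10.53, 10.51 and 10.51 on the nasal, temporal and dorsal arrays labelled knockout and 10.27, 9.69 and 10.08 in wild type. The groups did not overlap, though the gap between the closest arrays was somewhat less than the SD of wild type (10.52 ± 0.01 against 10.01 ± 0.30, SD over 3 regions). The fit was 0.50 (SE 0.25, adjusted p = 0.814 in limma). Krt14, its type I partner, read 10.26, 10.02 and 9.34 on arrays labelled knockout and 10.24, 8.22 and 8.82 in wild type. The nasal arrays were alike, and the temporal ones were 3.48-fold apart (log2 difference 1.8, bead SE 0.08, where the bead SE covers measurement on the array only).

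Krt17, a type I keratin of placodes, appendages and stressed epithelium, had the widest spread of the 30 genes. It read 7.54, 8.5 and 7.02 on the nasal, temporal and dorsal arrays labelled knockout and 7.58, 5.08 and 6.25 in wild type. The highest value and the lowest were both temporal, 10.7-fold apart (3.43, bead SE 0.19), whereas the nasal pair differed by -0.04 (bead SE 0.11) and the groups overlapped. The fitted difference of 1.39 (SE 0.67, adjusted p = 0.814 in limma) fell to 0.37 without either temporal array and was 2.10 without either nasal array. Krt15, a type I keratin of basal cells, varied less, from 9.50 on the wild-type temporal array to 10.48 on the wild-type nasal array.

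Read within a genotype, the basal keratins ordered the wild-type regions as nasal, then dorsal, then temporal. Krt14 was 4.04-fold (log2 difference 2.01, bead SE 0.08) and Krt17 5.67-fold (2.5, bead SE 0.17) higher on the wild-type nasal array than on the wild-type temporal one, and Krt15 and Krt5 differed by 0.98 and 0.58 the same way. On arrays labelled knockout the same contrast gave 0.24 for Krt14, -0.97 for Krt17, 0.29 for Krt15 and 0.03 for Krt5. At least 2-fold higher in wild-type nasal than in wild-type temporal were Krt14, Krt17, the plakophilin gene Pkp1 (1.12) and the P-cadherin gene Cdh3 (1.10 by its brightest probe), 4 of 29 members where 5.45% of genes were, and 0 were that much lower (5.47%). Whether the nasal to temporal contrast differed between genotypes was not tested, and with 1 array per group each is a difference between arrays. The wild-type temporal array was the lowest of the 6 for 10 of 30 members and for 13.4% of all genes, and the knockout nasal array the highest for 8 (23%). The wild-type temporal array also had the highest summed intensity of nerve and Schwann cell markers, 766 against 132 to 178 on the other wild-type arrays and 81.4 to 347 on those labelled knockout (5 of 6 on the array tested, S100b not detected), and the lowest of mesenchyme markers (786). Of the nerve and Schwann cell markers, Sox10 (8.36), Fabp7 (7.36) and Ngfr (6.71) read highest on that array. Foxd3 (4.89) and the remaining marker tested did not. The part of either list in the keratin values was not tested.

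**Figure D2:**
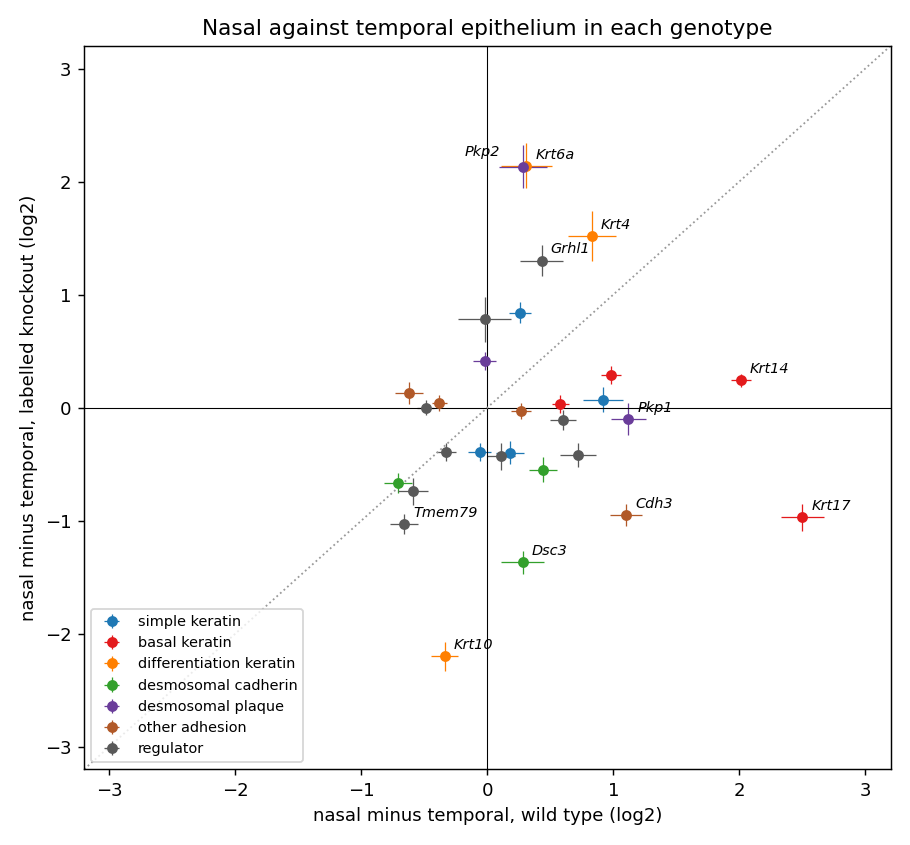
Nasal minus temporal difference of each of the 30 genes in wild type (horizontal) and on the arrays labelled knockout (vertical), in log2 units, 1 array per group, coloured by role; bars are bead standard errors and the dotted line marks equal values. Krt14 and Krt17 lie far to the right at 2.01 and 2.5, and Krt6a, Pkp2 and Krt4 lie high while Krt10 lies low.

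The simple keratins moved little with genotype, and Krt7 stood out by region. Krt7, a type II keratin of ducts and simple linings, read 8.21 and 8.13 in dorsal epithelium labelled knockout and wild type, 7.40 and 7.42 in nasal, and 7.33 and 6.5 in temporal. Dorsal was the highest region in each genotype, and averaging nasal and temporal and subtracting dorsal gave -1.01 (SE 0.30, 95% interval -1.75 to -0.26). It did not pass (adjusted p = 0.999 in limma) and was the 1 member with an unadjusted p under 0.05 in that contrast, where 3.83% of genes were. Krt19, a small type I keratin, ran the same way, with 8.78 and 8.57 in dorsal and 7.84 to 8.58 elsewhere (-0.52, SE 0.27, adjusted p = 0.999 in limma).

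Krt8 and Krt18, partners in the earliest epithelia, had fitted genotype differences of -0.05 and -0.25, with levels of 7.96 to 8.80 and 8.20 to 9.04 over the 6 arrays. Their nasal differences had opposite signs (0.30, bead SE 0.09, for Krt8 and -0.61, bead SE 0.09, for Krt18). The other probe of Krt8 was not detected on any array. Over the 30 members, the contrast of gland-forming nasal and temporal with dorsal epithelium had a median of 0.01 with 15 higher and 15 lower, beside 50.7% of all genes higher, and no member passed in limma. Krt7 alone reached 1 log2 unit, where 2.18% of genes did, 0.915% higher and 1.26% lower.

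Among keratins of differentiated layers, 3 of 6 were tested, and the knockout nasal array read lowest for Krt10 and highest for Krt6a and Krt4. Krt10, the type I keratin of suprabasal epidermis, read 4.70 there against 6.81 on the wild-type nasal array, 4.32-fold lower (log2 difference -2.11, bead SE 0.15). The lowest detected value on the knockout nasal array was 4.58, so the size of this fold depends on how background is handled. The remaining arrays read 6.90 and 7.15 in temporal and 6.70 and 5.85 in dorsal, labelled knockout first. The dorsal difference was thus 0.85 and opposite in sign. The genotype difference in dorsal minus the mean of those in nasal and temporal was 2.03 (95% interval -0.59 to 4.65, adjusted p = 1 in limma with 1 residual degree of freedom). It was 1.06 without background correction.

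Krt6a, a type II keratin of stratified mucosa and wounded skin, read 6.45 on the knockout nasal array and 4.31 to 5.01 on the other 5. Within arrays labelled knockout, nasal was at least 3.79-fold above temporal, where Krt6a was not detected. Its second probe gave 6.28 on that array and 4.27 to 5.21 elsewhere, so both probes singled out the same array. Krt4, the type II keratin of wet stratified mucosa, was detected on 3 arrays and read 5.77 and 5.21 in nasal (labelled knockout, wild type), 4.93 in wild-type dorsal and 4.25 to 4.40 where it was not detected.

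The keratins that mark other surfaces were at or near background. Krt1, the epidermal partner of Krt10, was detected on 0 of 6 arrays. Krt12, the keratin of corneal epithelium, and Krt13, the partner of Krt4, were each detected by 1 of 2 probes on 1 array, wild-type temporal for Krt12 (4.54) and knockout nasal for Krt13 (4.71). The fitted nasal minus temporal difference was 1.17 for Krt4, 1.22 for Krt6a, 1.13 for Krt14, 1.21 for Pkp2 and -1.27 for Krt10 (adjusted p of 0.694 to 0.75 in limma), and 5 of 30 members reached 1 log2 unit either way where 7.87% of genes did. In that contrast 17 members were higher in nasal (49% of genes) and 3 had an unadjusted p under 0.05 (7.08%), Krt4, Krt6a and Tmem79. Krt4 was not detected on either temporal array, so its value is set by background there and is not the size of a measured difference. Without the knockout nasal array the value was -0.06 for Krt10, 0.43 for Krt6a, 0.12 for Pkp2 and 0.73 for Krt4. Without the wild-type nasal array it was -2.48, 2.02 and 2.29 for Krt10, Krt6a and Pkp2. For Krt14 it was 0.36 without wild-type temporal, 0.56 without wild-type nasal and 1.89 without knockout temporal, and for Krt6a 0.64 without knockout temporal. Of 18 further keratins 17 were on the array, 12 were not detected at all and 3 were tested, 2 higher and 1 lower on arrays labelled knockout with 0 passing in limma; Krt23 read 7.17 on the wild-type temporal array and 5.78 on the knockout nasal one, and was not detected on the others.

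Of the desmosomal cadherins, Dsc3 differed most between the genotypes. Dsc3, the desmocollin of basal and lower layers of stratified epithelia, read 6.31, 7.68 and 6.59 on the nasal, temporal and dorsal arrays labelled knockout and 5.20, 4.92 and 5.03 in wild type. The wild-type arrays lay close together (5.05 ± 0.14, SD, n = 3) and every array labelled knockout lay above them (6.86 ± 0.72). The differences were 2.15-fold in nasal (1.11, bead SE 0.13), 6.76-fold in temporal (2.76, bead SE 0.15) and 2.96-fold in dorsal (1.56, bead SE 0.13), and the fit was 1.81 (SE 0.37, 95% interval 0.88 to 2.74, adjusted p = 0.814 in limma). It was 0.94 without background correction and 1.18 with an offset of 50.

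The widely expressed partners Dsc2 and Dsg2 did not share that pattern. Dsc2 had a fitted difference of -0.01 (95% interval -0.77 to 0.76) and read 8.11 to 8.77, with a positive value in temporal alone (0.66). Dsg2 had 4 probes, all detected on every array; the brightest gave 0.62, 0.59 and -0.16 in nasal, temporal and dorsal, and over the 4 probes temporal ran from 0.13 to 1.81 and nasal from -0.66 to 0.62. Dsg3, the desmoglein of basal keratinocytes, was not detected on any array by its only probe.

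In the desmosomal plaque Pkp3 separated the genotypes and Pkp2, by its brightest probe, marked a single array. Pkp3, a plakophilin found through all layers of stratified epithelia, read 9.91, 9.50 and 9.76 on the nasal, temporal and dorsal arrays labelled knockout and 8.67, 8.69 and 9 in wild type. The gap between the groups, 9.73 ± 0.21 against 8.78 ± 0.18, exceeded the spread within each (fit 0.94, SE 0.25, 95% interval 0.32 to 1.56, adjusted p = 0.814 in limma). Pkp2, the plakophilin of simple epithelia and heart, read 6.93 on the knockout nasal array and 4.70 to 5.39 on the other 5.

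That Pkp2 pattern, a nasal difference of 1.78 (bead SE 0.15), comes from the brightest of 3 probes. Of the dimmer ones, 1 was detected on wild-type nasal and not on knockout nasal, and the other on knockout nasal and not on wild-type nasal, so they give no measured size. Pkp1, which links desmoplakin to the membrane in stratified epithelia, read highest on the wild-type nasal array (6.86) and 5.42 to 6.45 elsewhere, and Jup, which encodes plakoglobin, was detected on 1 array only, knockout dorsal (4.66).

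By their brightest probes Krt6a, Krt4, Pkp2 and the grainyhead-like gene Grhl1 read highest and Krt10 lowest on the knockout nasal array. The dimmer probes of Pkp2 read highest on wild-type nasal (5.21) and knockout dorsal (4.92), and that of Grhl1 on wild-type nasal (5.27, against 4.69 on knockout nasal). On the knockout nasal array macrophage markers summed to 218, against 52.3 and 52.8 on the other arrays labelled knockout and 19.4 to 50.9 in wild type (5 of 9 on the array tested, with Ptprc, C1qb and C1qc not detected). The part of macrophage markers in the values of these genes was not tested. In nasal epithelium 9 of 30 members differed at least 2-fold between the genotypes (21% of genes), 7 higher (10.5% of genes) and 2 lower (10.5%), and these were Krt6a, Dsc3, Pkp2, Pkp3, Esrp2, Ovol1 and Tmem79 against Krt10 and Cdh3. In temporal 7 of 29 differed (16.9%), all 7 of them higher (8.58%) and 0 lower (8.31%), adding Krt14, Krt17, Cdh3 and Sfn to Dsc3, Esrp2 and Tmem79; the probes of Cdh3 disagree, as described with the adhesion genes. In dorsal 4 of 30 differed (6.49%), 3 of them higher (3.15%), again Dsc3, Esrp2 and Tmem79, and Grhl1 alone was lower (3.35%). Esrp2 is counted by its brightest probe, and its second probe differed by -1.33 in dorsal. The median over members was 0.16, 0.59 and 0.14 in nasal, temporal and dorsal, beside -0.04, -0.03 and 0 over all genes. Epidermis markers, Krt10 among them, summed to 295 on the knockout temporal array against 167 on the wild-type one (145 to 295 and 107 to 176 over the regions; 5 of 10 on the array tested; Krt1, Tgm3 and Sprr1b not detected). Lens markers summed to 229 against 43.7 (72.6 to 229 and 43.7 to 88 over the regions, with 4 of 9 tested and Cryaa, Crygs, Lim2 and Foxe3 not detected). Most of that was Prox1, with 7.76 on the knockout temporal array and 5.18 on the wild-type one. In the same order Cryba1 read 4.63 and 4.63, Cryab 4.50 and 4.75, and Mip 4.82 and 4.31. The part of either list in the temporal values was not tested.

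**Figure D3:**
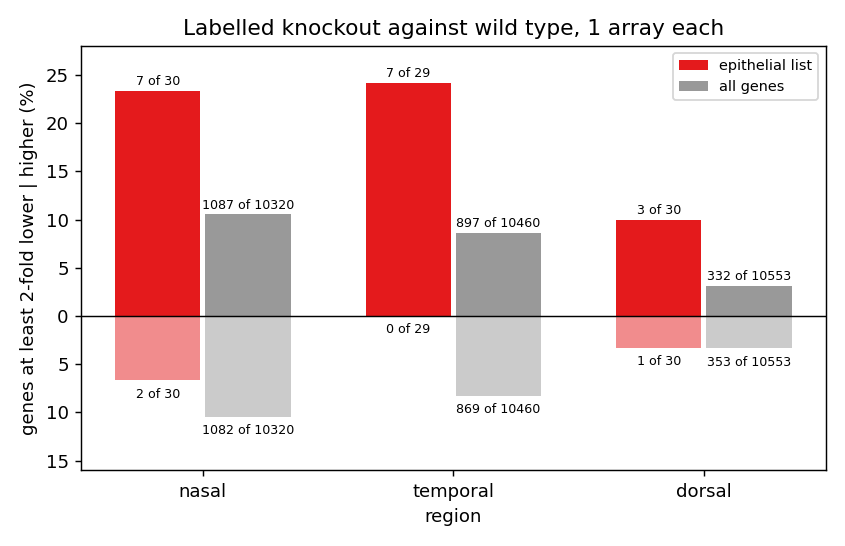
Share of genes that differed at least 2-fold between the array labelled knockout and the wild-type array of each region, upward bars for higher and paler downward bars for lower, in the epithelial list (red) and over all genes detected on either array (grey); numbers give the counts. The list has more genes higher than lower in each region, 7 and 2 in nasal, 7 and 0 in temporal and 3 and 1 in dorsal.

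The other contrasts within a genotype named few further genes. In wild type Krt14, Krt17 and Pkp1 were at least 2-fold higher in nasal than in dorsal epithelium, 3 of 30 members (4.95% of genes) with 0 lower (5.32%), and between temporal and dorsal Krt10 was higher (3.04%) and Krt7 and Krt17 were lower (3.1%). On arrays labelled knockout, nasal exceeded dorsal for Krt4, Krt6a, Pkp2 and Grhl1, 4 of 30 (9.71%), with Krt10 lower (10%). The same 4 genes were higher in nasal than in temporal (11.8%), where Krt10, Dsc3 and Tmem79 were lower (12.2%). Pkp2 is counted by its brightest probe, and its direction between nasal and dorsal depends on the probe. A dimmer probe read 4.60 in knockout nasal and 4.92 in knockout dorsal, and a further one was detected in knockout dorsal and not in knockout nasal. On arrays labelled knockout, temporal exceeded dorsal for Krt17, Dsc3, Cdh3 and Tmem79, 4 of 29 (8.22%), with 0 lower (7.81%). Cdh3 is counted by its brightest probe. Dimmer probes of it read 4.70 and 4.71 in knockout dorsal and were not detected in knockout temporal, so its direction depends on the probe. Of the 30 members, 18 ranged over at least 1 log2 unit across the 6 arrays, where 52.9% of genes did.

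Among the other adhesion genes the fitted differences ran from -0.43 to 0.06, 1 higher and 3 lower. Cdh1, the E-cadherin of adherens junctions, read 11.41 to 11.79 over the 6 arrays and had the narrowest range of the 30 genes. Epcam, a surface adhesion protein of epithelia, read 8.71, 8.59 and 8.67 on the nasal, temporal and dorsal arrays labelled knockout and 8.95, 9.57 and 8.76 in wild type. The groups did not overlap, but the gap rested mostly on the wild-type temporal array (differences -0.23, -0.99 and -0.09; fit -0.43, SE 0.29, adjusted p = 0.835 in limma). Perp, a tetraspan protein of desmosomes, read 9.09 to 9.62.

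For Cdh3, which encodes P-cadherin of basal cells, the probes disagreed. The brightest gave -1.05, 1.01 and -0.40 in nasal, temporal and dorsal, whereas another gave -0.92 in nasal and -1.40 in dorsal and a further one 0.77 and -0.40. Both of these dimmer probes were detected on the wild-type temporal array (5.73 and 4.93) and not on the knockout temporal one. In temporal they thus ran opposite to the brightest probe, and no direction is given for the gene. A dimmer probe of Cdh1, not detected on wild-type nasal, likewise differed by 1.45 in nasal against 0.16 for the bright one.

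Of the 9 genes grouped as regulators, 7 had a positive fitted genotype difference, led by Tmem79. Tmem79, a transmembrane protein that acts in lamellar granule secretion of the epidermis, read 7.47, 8.5 and 7.12 on the nasal, temporal and dorsal arrays labelled knockout and 5.58, 6.25 and 5.51 in wild type. Its differences were 3.70-fold, 4.77-fold and 3.05-fold, each far above the bead error (1.89, 2.25 and 1.61, bead SE 0.10 to 0.11), and the lowest array labelled knockout lay above the highest wild-type array. The fit gave 1.92 (SE 0.26, 95% interval 1.27 to 2.56, adjusted p = 0.814 in limma); leaving out single arrays moved it between 1.75 and 2.07, and it was 1.22 without background correction.

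Esrp2, which together with Esrp1 directs epithelial splicing, read 7.08, 7.81 and 7.95 on the nasal, temporal and dorsal arrays labelled knockout and 5.84, 6.43 and 6.64 in wild type. The differences of 1.24, 1.38 and 1.31 were nearly equal, and both groups ran from nasal up to dorsal (fit 1.31, SE 0.24, 95% interval 0.73 to 1.90, adjusted p = 0.814 in limma). The second Esrp2 probe, detected on all 6 arrays, gave 1.19 and 1.37 in nasal and temporal but -1.33 in dorsal, so the dorsal direction depends on the probe, and the mean of the probes gave a fit of 0.86. Esrp1 read 9.74 to 10.56, with a fitted difference of 0.13 (95% interval -0.53 to 0.80).

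Grhl3, a grainyhead-like factor of barrier formation and eyelid fusion, read 7.73, 7.84 and 7.94 on the nasal, temporal and dorsal arrays labelled knockout and 7.5, 6.90 and 7.06 in wild type. The groups did not overlap, the nasal pair being close (0.23, bead SE 0.09), and the fit was 0.68 (SE 0.27, adjusted p = 0.814 in limma). Its dimmer probe gave -0.18, -0.03 and 1.08. Grhl2, which controls epithelial junction genes, ran the other way in all 3 regions (-0.59, -0.54 and -0.13; fit -0.42, SE 0.25, adjusted p = 0.815 in limma), with levels of 7.38 to 8.31.

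Grhl1 differed in sign between regions (0.81, -0.06 and -1.30 in nasal, temporal and dorsal). Its genotype difference in dorsal minus the mean of those in nasal and temporal was -1.68 (SE 0.68, adjusted p = 1 in limma). Its second probe differed by -0.58 in nasal and was not detected on the temporal and dorsal arrays labelled knockout. Ovol1, a zinc finger factor that restrains proliferation and mesenchymal genes, was detected on all 3 arrays labelled knockout (5.51, 4.73 and 5.59) and on wild-type dorsal alone (4.89). It was at least 2.03-fold higher in nasal and at least 1.19-fold higher in temporal, with a fit of 0.72 (SE 0.27, adjusted p = 0.814 in limma). Sfn, a cell cycle and differentiation protein, had -0.12, 1.03 and 0.22.

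Trp63, the master regulator of stratified epithelia, was level by its brighter probe, at 7.63, 8.06 and 8 on arrays labelled knockout and 8.01, 7.89 and 7.73 in wild type (fit 0.02, 95% interval -0.63 to 0.67). Its other probe was detected on wild-type nasal (5.97) and wild-type dorsal (5.14) and on no array labelled knockout. Over the list, the genotype difference in dorsal minus the mean of those in nasal and temporal was negative for 23 of 30 members (positive for 50% of genes). Its median was -0.29, with 0 members at an unadjusted p under 0.05 in limma (2.08%). At least 1 log2 unit was reached by Krt10 upward (8.58%) and by Pkp2 (-1.55) and Grhl1 downward (7.98%), 3 of 30 where 16.6% of genes did, and 0 members passed in limma.

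**Figure D4:**
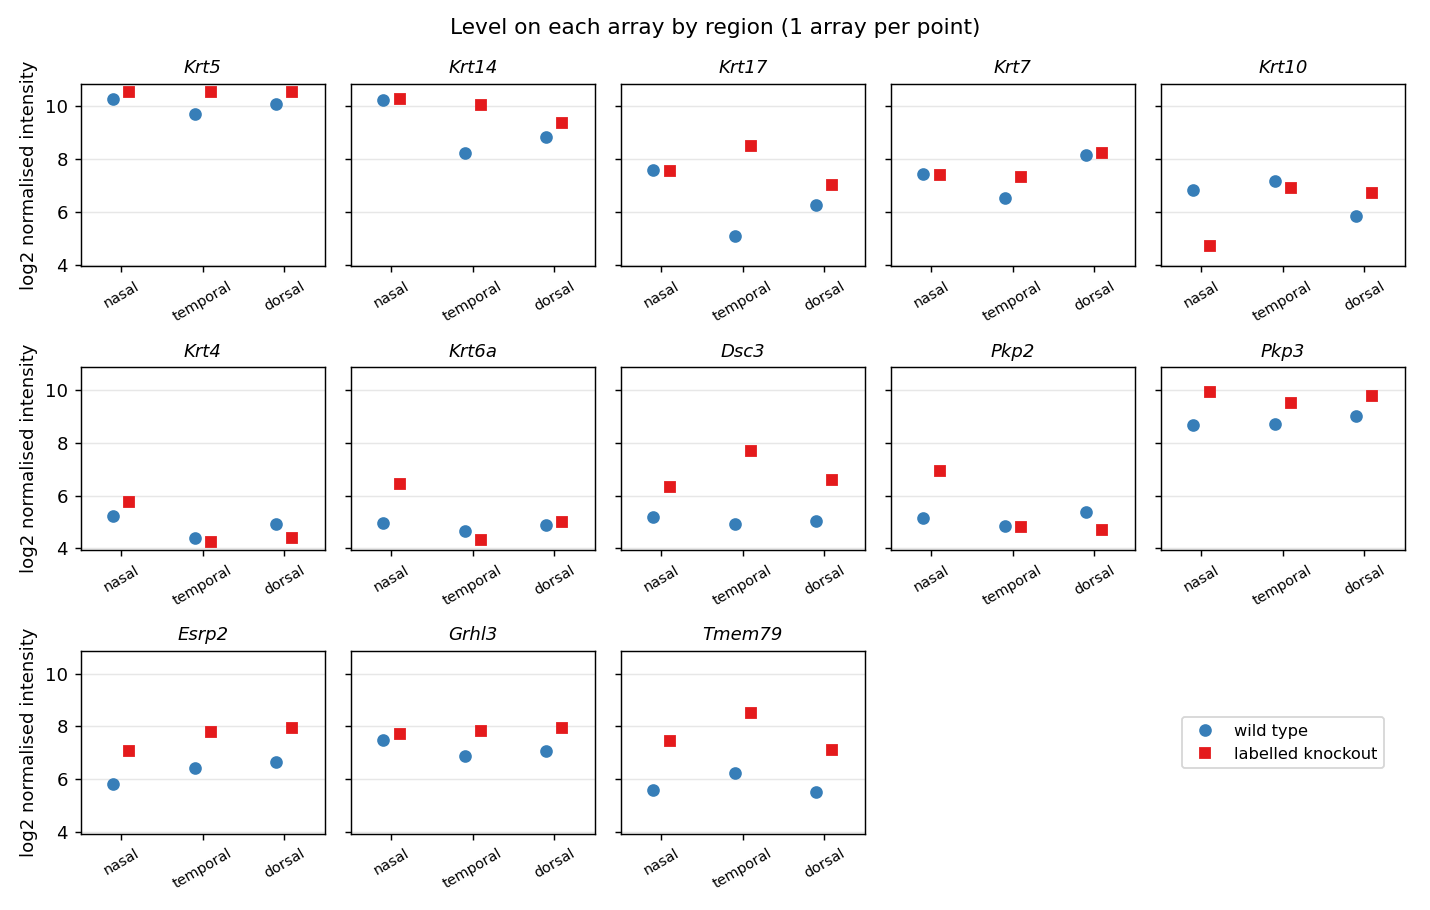
Level of 13 genes of the list on each of the 6 arrays, in log2 normalised intensity, by region, with wild type as blue circles and arrays labelled knockout as red squares, 1 array per point. Krt5, Dsc3, Pkp3, Esrp2, Grhl3 and Tmem79 have all red squares above all blue circles. Krt14 and Krt17 are low on the wild-type temporal array. By their brightest probes, Krt6a and Pkp2 are high on the knockout nasal array alone.

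Related genes outside the list were counted over the same fit. Of 20 other genes of desmosomes, adherens junctions and hemidesmosomes, 19 were tested, 11 higher and 8 lower on arrays labelled knockout, with a median of 0.01 and 0 passing in limma. The plakin Ppl, which lines the cornified envelope and binds keratin, had 0.73, 1.30 and 0.57 in nasal, temporal and dorsal (fit 0.87, SE 0.27), and Dsg1a, a desmoglein of upper layers, Plec, which ties keratin to hemidesmosomes, and the plakin Evpl had fits of 0.75, 0.74 and 0.64. All 4 had adjusted p of 0.814 to 0.815 in limma.

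Of 37 other epithelial identity genes, 31 were tested, 16 higher and 15 lower, with a median of 0.03. Ehf, an ETS factor of glandular epithelia, was lower in all 3 regions (-2.87, -0.74 and -1.98; fit -1.86, SE 0.44), and the surface ectoderm factor Tfap2a was higher in all 3 (1.27, 0.33 and 1.24; fit 0.95, SE 0.30), each with an adjusted p = 0.814 in limma. Of 24 genes of epidermal differentiation, 12 were tested, 8 higher and 4 lower with a median of 0.24, among them the crosslinking enzyme gene Tgm1 (1.52, 1.13 and 0.47; fit 1.04, SE 0.30) and the galectin gene Lgals7 (-2.32, -1.69 and 0.20; fit -1.27, SE 0.51). None passed (adjusted p = 0.814 in limma). Ehf was not detected on the knockout nasal array, and Lgals7 on neither the knockout nasal nor the knockout temporal array. Their differences there are set by background and are not measured sizes.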

How the data were processed

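The authors' deposited signal intensities are bead averages per probe with a bead standard error, a bead number and a detection p-value, per the file headers; its steps correspond to 936 negative controls; GenomeStudio is named in the submitters' processing notes. The authors' processed intensity values, which hold negative numbers and were normalized by a method not given in the sources used here, served as an alternative. The 1315 entries without an identifier were not used. Signals were corrected with normexp (limma 3.58.1, R 4.3.3; controls inferred from detection p-values, offset 16), quantile-normalized and taken to log2. Of 45281 probes 34885 had 1 symbol, updated through the gene table of GRCm38.p6. The brightest probe detected (p under 0.05) on at least 2 arrays stood for a gene. A limma model with region and genotype was fitted to 11147 genes on 6 arrays with Benjamini-Hochberg adjustment. A further fit tested the genotype difference in dorsal against the mean of those in nasal and temporal. Where a gene was undetected on 1 side, its fold is a bound against the higher of its own value and the lowest detected value of that array. Marker sums are of intensity without the offset. Values on all arrays are given for members with a fitted genotype or region difference of at least 1 log2 unit, 2 units within a region, or an unadjusted p under 0.01; others, such as those that separated the genotypes, were added after their values were seen. At most 4 tested genes of any other list are named. The scripts were tested on simulated data. Members and lists were chosen with earlier results of these data known. Alternatives changed background, offset, scaling, filter, probe rule, source, arrays, variance model and region term. Precision is limited by 6 arrays.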

Additional observations from a re-analysis of the deposited data

How the results depend on the processing

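No member passed limma's threshold for genotype (18 alternatives), for either region contrast (14 each) or for the dorsal genotype difference against the nasal and temporal ones (8), and none of the fitted differences named above for Tmem79, Dsc3, Esrp2, Krt17, Pkp3, Ovol1, Grhl3, Krt5, Krt14 and, by region, Krt7, Krt4, Krt6a, Krt10, Krt14 and Pkp2 changed sign. The region term pairs the arrays of a region; without it the smallest adjusted p of a member was 0.731. The 6 genes above wild type on every array labelled knockout remained in all alternatives but the mean of probes, which lost Esrp2. Leaving out arrays can only add genes to such a set, and the variance model and region term leave the values unchanged. Those settings could therefore not have removed a gene. The count was 10 with median scaling, 12 without both nasal and 10 without both dorsal arrays, and 6 to 10 with 1 array left out, beside 1320, 1861, 1887 and 955 to 1310 of 11147 genes (575 in the main model). Members below wild type on every such array numbered 0 with median scaling, 5, 3 and 3 without both nasal, temporal or dorsal arrays, and 1 to 3 with 1 array left out, beside 351, 2010, 1909, 2266 and 1092 to 1632 genes (703). Members at least 2-fold apart in nasal, temporal and dorsal numbered 2, 4 and 0 without background correction, where all genes fell from 2169, 1766 and 685 to 539, 389 and 58; they numbered 4 in nasal and 2 in dorsal with an offset of 50 (884 and 134 genes), 8 in dorsal with median scaling (775), and 17 in temporal and 11 in dorsal at 1.5-fold (3964 and 2432). Leaving out 1 array moved Krt14's genotype difference between 0.27 and 1.16, and Pkp2's nasal minus temporal difference between 0.12 and 2.29. With the mean of probes Pkp2's genotype difference in dorsal minus the mean of those in nasal and temporal was -0.19 in place of -1.55. Without background correction Krt17's genotype difference was 0.87 and Ovol1's 0.26, and the nasal minus temporal value was 0.43 for Krt4, 0.51 for Krt6a, -0.64 for Krt10 and 0.57 for Pkp2.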
